A study of Oryza sativa with 6 samples.

Results

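On chromosome 11 of rice (Oryza sativa), the loci numbered from Os11g0220000 to Os11g0245000 form a stretch in which some genes gave reads in one genotype and none in the other. All 81 loci of that range in the normalized table, out of 27397 in the whole table and 1605 on chromosome 11, were kept whatever their level. The 81 loci directly before them (Os11g0201175 to Os11g0219000) and the 81 directly after (Os11g0245100 to Os11g0275200) served for comparison. The range was picked because its loci differ between the genotypes, so every difference between the genotypes given here is a description of the chosen loci, without a test of it. Order along the chromosome is the order of the locus identifiers, and "neighbours" are neighbours among the loci of the table, which holds no gene with fewer than 10 reads over the 6 libraries.

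RNA was sequenced from 3 samples of wild-type Nipponbare, a japonica cultivar, and 3 of the Nipponbare knockout line pine1-1a, called pine1 below. Each sample pooled 8 plants at 20 days after germination under 16 h days, without treatment, and consisted of about 1 cm of the plant base with stem and shoot apical meristem. The knockout is a single line, and the labels do not say how it was made or whether its plants descend from 1 edited plant. The labels name no separate sowings, so the spread between samples may be partly technical.

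Many rice chromosomes carry clusters of immune receptor genes of the NB-ARC or NBS-LRR type, and chromosome 11 is known for them. These receptors sit inside the cell, where leucine-rich repeats take part in sensing proteins of a pathogen and the NB-ARC domain binds a nucleotide and acts as the switch. Such clusters grow by duplication, and their members resemble each other. Transposon genes and short genes of unknown function are common between them. Of the 81 loci, 17 are described in the authors' deposited table. The other 64 carry no description here. Among the 17, 3 are immune receptor genes by name, 2 match a kinase name, 1 is a transposon gene and 7 are non-coding or hypothetical, while 0 are F-box or ubiquitin genes. These are matches on names, and a locus can match more than 1 of them, so the groups overlap.

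Library depth ranged from 27918842 to 36250239 recovered reads. PINE1 (Os12g0617000, chromosome 12), the knocked-out gene, had 3569, 3674 and 2943 normalized reads in wild type and 5199, 5044 and 4173 in pine1, so its RNA was present in every library and its level does not check the labels. The meristem genes OSH1 (Os03g0727000) and OSH15 (Os07g0129700) were read in every library, OSH1 with 281 to 441 normalized reads in wild type and 761 to 1033 in pine1, and OSH15 with 648 to 873 and 1440.3 to 1880. Of the root markers, Os02g0662000 ranged from 355 to 589 normalized reads in wild type and from 88.9 to 297 in pine1, and Os01g0704100 from 5.13 to 7.65 and from 15.8 to 26.3. The genotypes overlapped at none of these 4 marker genes, and their part in the results for the stretch was not tested. In such bulk samples, fewer cells of a type and less RNA per cell cannot be told apart.

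A total of 70 of the 81 loci passed the filter on low reads and entered the limma fit over 24149 genes, and 11 did not. Called means a Benjamini-Hochberg adjusted p under 0.05 over all genes tested. In the stretch 17 loci were called, 11 higher and 6 lower in pine1, against a background of 6.46% of all tested genes (4.02% higher and 2.44% lower). That is 24.3% of its tested loci, while 2 of 66 (3.03%) were called in the loci before and 4 of 68 (5.88%) in the loci after. On chromosome 11 as a whole, the stretch included, 136 of 1370 tested loci (9.93%) were called. Log2 fold changes, given as pine1 over wild type on the log2(normalized reads + 1) scale, had a median of 2.4e-04 in the stretch and -3.6e-05 over all genes. Their median size without sign was 0.27 in the stretch, 0.096 in the loci before, 0.16 in the loci after, 0.15 on chromosome 11 and 0.12 over all genes. A fold change of at least 1 in size was seen at 11 tested loci of the stretch, at 0 before it and at 1 after it, against a background of 3.63%. All 17 called loci are in the authors' deposited table too, with the same direction once its ratio, wild type over pine1, is turned round. That table was made from the same libraries, so this is no separate evidence. It holds 1503 of the 1559 genes called over the whole series. The plot of fold changes by locus order shows these loci.

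**Figure D1:**
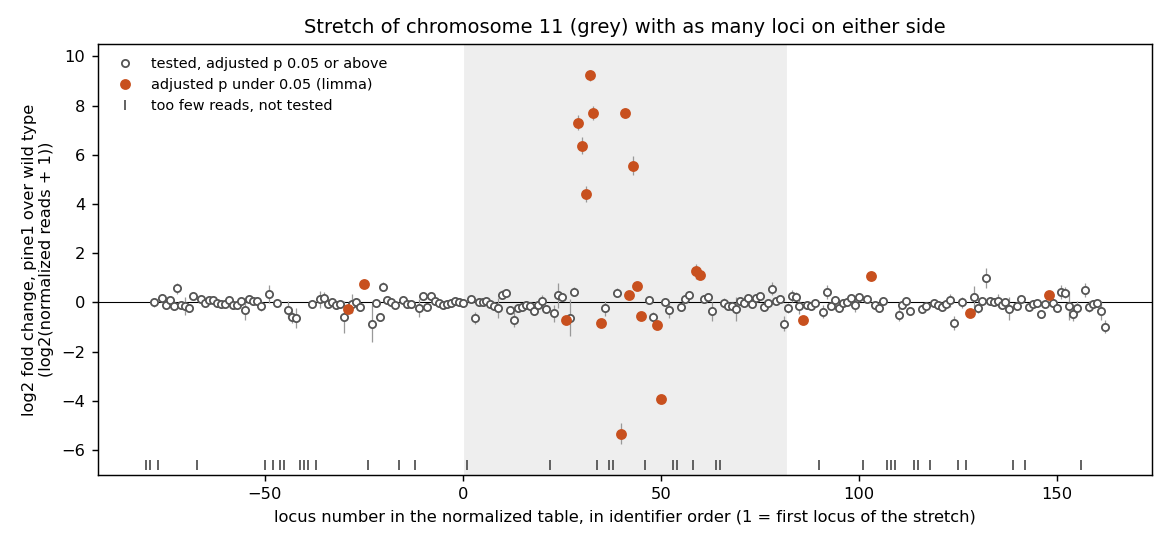
Log2 fold change (pine1 over wild type, bars are standard errors) of the tested loci by their number in the normalized table, for the stretch (grey, loci 1 to 81) and as many loci on either side; filled points have an adjusted p under 0.05. Values from -5.33 to 9.22 are seen inside the stretch, where 15 of its 17 filled points lie among loci 26 to 50, while the tested loci on either side stay between -0.98 and 1.08.

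The differences were not spread evenly over the stretch. Its first 25 loci, Os11g0220300 to Os11g0227000, held 23 tested loci and 0 called ones (2 of them had been too low to test), with fold changes from -0.70 to 0.40. The next 25, from Os11g0227100 to Os11g0235700, held 21 tested loci, of which 15 were called, 9 higher and 6 lower. In the last 31, Os11g0236000 to Os11g0245000, 2 of 26 tested loci were called, and these 2 are direct neighbours. The borders of the middle part were set at the called loci themselves after their values were seen. The high share of calls within it and the 0 calls before it are therefore by construction. Within it the called loci run in blocks of 1 direction only if the loci between them that were not called are passed over. Os11g0233201 lies 5 loci after the lower locus before it, and Os11g0235400 lies 4 after. The means of the loci in between differed in either direction. One lower locus is followed, after 2 loci that were not called, by 5 higher neighbours in a row (Os11g0227300 to Os11g0229100). Then come 2 lower called loci (Os11g0229400 and Os11g0233201), 4 higher neighbours (Os11g0233400 to Os11g0234100) and 3 lower called loci (Os11g0234200, Os11g0235400 and Os11g0235700).

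A locus was counted as read in 1 genotype only when every library of the other had at most 3 reads while its own genotype had a mean of at least 30 normalized reads. By that definition 6 loci of the stretch were read in 1 genotype only, 5 in pine1 and 1 in wild type, against a background of 0.135% of all loci (0.113% and 0.0219%). These 6 are part of 37 such loci in the whole table and of 11 on chromosome 11, and the loci before and after the stretch held 0. In all 6 the silent genotype had no read at all in any of its 3 libraries. Where a genotype had no reads, "at least" marks a fold against 3 reads in each library, on average 2.91 normalized reads in wild type and 3.10 in pine1. Such bounds cover counting error only.

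Among the 5 loci read in pine1 only, Os11g0229000, listed as a hypothetical conserved gene, had the most reads. It gave 0 reads in all 3 wild-type libraries and 557, 629.6 and 608 normalized reads in pine1 replicates 1 to 3. That is a mean of 598 ± 37.5 (SD, n = 3), at least 206-fold above wild type. Its direct neighbour Os11g0229100 (LOC_Os11g12290 in the older MSU annotation), described only by similarity to a clone and as a putative proteophosphoglycan, gave 0 in wild type and 209, 215 and 194 in pine1, at least 70.8-fold higher. The pine1 replicates of both stayed close together. The gap to wild type is part of how these loci were picked.

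The other loci of this kind were read less. Os11g0227300 (LOC_Os11g12010), a conserved hypothetical gene, had 0 reads in wild type and 144, 156 and 175 normalized reads in pine1, a mean of 158 ± 15.6 and at least 54.4-fold higher. Os11g0227600, a hypothetical gene, went from 0 to 70.5, 84.9 and 90.2, at least 28.2-fold. Both stand beside each other in the table, and with Os11g0229000 and Os11g0229100 they make up 4 of the 5 higher neighbours. Os11g0234001 (LOC_Os11g12630), named as an unclassified transposon gene in one annotation and as a conserved hypothetical gene in the other, had 0 reads in wild type and 49.3, 50.5 and 38.3 in pine1, at least 15.8-fold. The descriptions of these 5 loci name no role in the stem or apex.

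The locus read in wild type only was Os11g0233201 (LOC_Os11g12560). The authors' deposited table lists it as a hypothetical gene and, in the MSU annotation, as a precursor of a receptor-like kinase named after HAIKU2, which in Arabidopsis promotes growth of the endosperm and seed. It had 29.5, 51.9 and 39.3 normalized reads in wild type and 0 in every pine1 library. The mean of 40.2 ± 11.2 is at least 13.0-fold above pine1. It lies directly before the most read of the higher loci, Os11g0233400, so that opposite patterns adjoin.

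**Figure D2:**
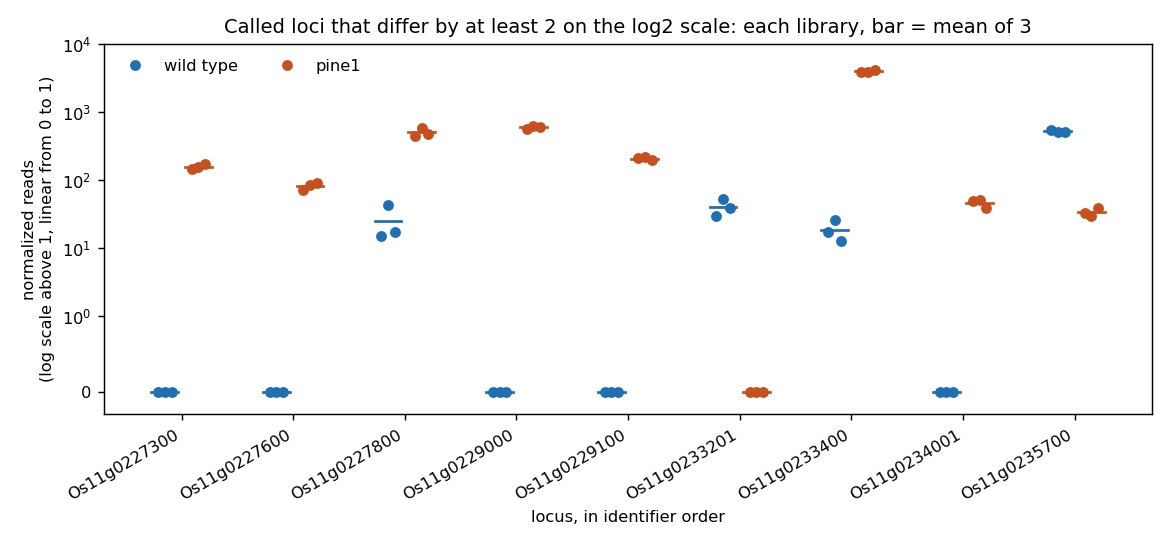
Normalized reads in each library (points; log scale above 1 and linear from 0 to 1; bars are the mean of 3) for the 9 called loci whose log2 fold change was at least 2 in size, wild type in blue and pine1 in orange. Points at 0 are libraries without a read: 5 loci are at 0 in all wild-type libraries, Os11g0233201 is at 0 in all pine1 libraries, and the other 3 have a low but nonzero level in one genotype.

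In 3 further loci the low genotype kept some reads. Os11g0233400, known by a cDNA clone name only, had 17.5, 25.9 and 12.8 normalized reads in wild type and 3877, 3924 and 4132 in pine1. The means of 18.7 ± 6.66 and 3978 ± 135 differ 212-fold, a log2 fold change of 7.71 (SE 0.21). It thus was the called locus with the largest gain in reads. Os11g0227800 (LOC_Os11g12050), an NBS-LRR disease resistance gene by name, had 15.3, 42.3 and 17.1 in wild type and 441, 590.2 and 473 in pine1. Its means of 24.9 ± 15.1 and 501 ± 78.8 differ 20.1-fold (log2 4.41, SE 0.33). It is the locus between Os11g0227600 and Os11g0229000, both silent in wild type. Because members of this receptor family resemble each other, some reads may fit several copies. The labels do not state how such reads were treated. Any effect on the values of Os11g0227800 in either genotype was not tested.

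The opposite pattern was seen at Os11g0235700, listed as similar to FHY1. In Arabidopsis, FHY1 carries the photoreceptor phytochrome A into the nucleus in far-red light. The locus had 539.5, 516 and 511 normalized reads in wild type and 32.9, 29.3 and 38.3 in pine1. Means of 522 ± 15.1 and 33.5 ± 4.56 differ 15.6-fold, and the log2 fold change was -3.93 (SE 0.14). Neither group comes near the other. Just before it, Os11g0235400, listed as hypothetical, was lower in pine1 as well, with 138, 131 and 138 against 84.1, 64.7 and 68.8 (log2 -0.90, SE 0.16).

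The other immune receptor genes by name were lower in pine1, opposite to Os11g0227800. Os11g0229400 (LOC_Os11g12330), similar to an NBS-LRR protein and named after RPM1, an Arabidopsis receptor for bacterial effectors, had 684, 877 and 768 normalized reads in wild type and 438, 445 and 415 in pine1 (log2 -0.84, SE 0.10). Os11g0227100 (LOC_Os11g11990), similar to an NBS-LRR-like protein, had 186, 235 and 232 in wild type and 126, 123 and 149 in pine1 (log2 -0.71, SE 0.14). The libraries of the genotypes did not overlap at either of these called loci, as at 25.3% of all loci, but both were picked by their calls. Of the 3 loci of the stretch described as receptors, 1 was called higher and 2 lower. The other 64 loci carry no description here, so further receptor genes may be among them, and all 17 described loci were called. Over its whole length, the authors' deposited table has 68 genes named with NB-ARC, NBS-LRR, disease resistance or leucine-rich. This pattern can also match leucine-rich proteins of other kinds. Of the 68, 27 were called higher and 19 lower here. That table was itself selected on these libraries, and 1503 of the 1961 genes it shares with the normalized table were called here.

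Moderate differences made up the rest of the middle part. Os11g0233800 (OsRLCK320), a receptor-like cytoplasmic kinase of the kind that relays signals from receptors at the membrane, had 1349, 1298 and 1178 normalized reads in wild type and 1609.7, 1476 and 1579 in pine1 (log2 0.29, SE 0.07). It stands between Os11g0233400 and Os11g0234001, whose reads were almost or fully missing in wild type, while its own reads were plentiful in both genotypes. Os11g0234100, a transcript without a protein product, had 117, 148 and 141 in wild type and 199, 223 and 215 in pine1 (log2 0.65, SE 0.13). Os11g0234200, with a PHD finger, a domain that in many proteins binds the tail of histone H3, had 258, 301 and 267 in wild type and 186, 194 and 184 in pine1 (log2 -0.55, SE 0.11). Groups were apart at all 3 called loci, as at 25.3% of all loci, but by little next to the loci around them. The 3 were picked by their calls. With a single library left out, calls were lost at Os11g0227100 (4 of the 6 libraries, adjusted p up to 0.0834), Os11g0233800 (any of the 6, up to 0.128), Os11g0234100 (3 of the 6, up to 0.0717) and Os11g0234200 (3 of the 6, up to 0.0781).

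A pair of neighbours beyond the middle part carries the same description. Os11g0240600 (LOC_Os11g13670) and Os11g0239500 (LOC_Os11g13570) both encode alpha/beta hydrolase fold-3 proteins and are named after a relative of the gibberellin receptor GID1, whose family also includes carboxylesterases without a hormone role. Os11g0240600 had 305, 374 and 392 normalized reads in wild type and 704, 771 and 827 in pine1, a 2.15-fold difference (log2 1.11, SE 0.11). Os11g0239500 had 30.6, 36.5 and 62.4 in wild type and 133, 68.7 and 109 in pine1, a 2.40-fold difference (log2 1.26, SE 0.32). The lowest pine1 library lies just above the highest wild-type one at the latter. Its call ended without either of wild type replicates 1 and 2 or either of pine1 replicates 1 and 3 (adjusted p up to 0.161), with edgeR (0.0502) and with a filter at a mean of 50 normalized reads (0.0511). The call at Os11g0240600 was kept with each of the 13 alternatives.

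**Figure D3:**
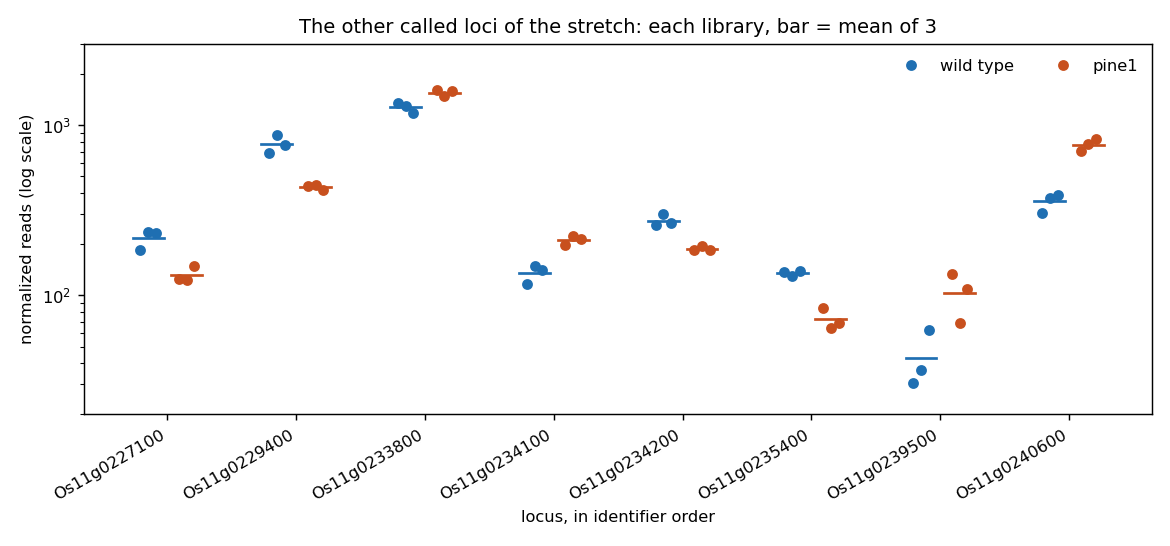
Normalized reads in each library (points, log scale; bars are the mean of 3) for the 8 called loci of the stretch whose log2 fold change was under 2 in size, wild type in blue and pine1 in orange. The libraries of the genotypes do not overlap at any of the 8, as at 25.3% of all loci, but the 8 were picked by their calls. The gap is narrowest at Os11g0239500, between 62.4 and 68.7.

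Loci that did not differ clearly lie between the called ones. Of 6 tested loci of the middle part that were not called, Os11g0235200 had 844, 839 and 861 normalized reads in wild type and 824, 979 and 912 in pine1, with overlapping groups (log2 0.091, SE 0.075). Os11g0232100 had 118, 104 and 88.9 against 163, 114 and 135, also overlapping. Os11g0227250, next to the first silent locus, had 54.6, 63.4 and 67.5 against 80.2, 86.9 and 85.7 (log2 0.44, SE 0.17), apart but not called. Os11g0235300 had 80.8, 70.2 and 94.9 against 47.3, 63.7 and 50.8 (log2 -0.60, SE 0.20). Os11g0227200 varied widely among the pine1 libraries, which had 68.6, 17.2 and 4.51, against 20.8, 31.7 and 35.0 in wild type. Os11g0229600 had from 17.2 to 32.5 over all libraries.

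The 11 loci with too few reads to test had at most 17.3 normalized reads in any library. At 9 of them the genotypes overlapped, and at the other 2 wild type was higher. Os11g0234300 had 10.9, 7.69 and 8.55 in wild type and 1.93, 3.03 and 1.13 in pine1. Os11g0236932 had 10.9, 16.3 and 8.55 in wild type and 2.90, 3.03 and 3.38 in pine1. These last values are 3 reads in each pine1 library, so Os11g0236932 joins the loci read in 1 genotype only, as the 7th, when a mean of 10 normalized reads is enough.

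Over the whole stretch 41 of 81 loci had genotypes that did not overlap (21 higher and 20 lower in pine1), against 25.3% of all loci (13.0% higher and 12.3% lower). In the loci before the stretch 19 of 81 and in those after it 26 of 81 did not overlap. On chromosome 11 as a whole, the stretch included, 29.0% did not. Outside the middle part the count was 9 among the first 25 loci of the stretch, 2 of them higher, and 14 among the last 31, 9 of them higher. Among the first 25, Os11g0223400 had 153, 175 and 176 normalized reads in wild type and 218, 226 and 218 in pine1 (log2 0.40, SE 0.11). Os11g0225000 had 28.4, 29.8 and 35.0 against 21.3, 24.3 and 12.4 (log2 -0.70, SE 0.30). Among the last 31, Os11g0240900 had 904, 859 and 858 against 1035, 991 and 1037 (log2 0.22, SE 0.06). None of the 3 was called.

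Os11g0233400 apart, the loci with the most reads in the stretch differed little. Normalized reads grow with transcript length, and lengths were not used here, so these are shares of reads and not levels per transcript. Os11g0220800 had 15079, 15724 and 15695 normalized reads in wild type and 15114, 15615 and 15905 in pine1, a log2 fold change of 0.0042 (SE 0.042). Os11g0242800 had 12981, 12786 and 10761 in wild type and 13435, 13664 and 14069 in pine1 (log2 0.18, SE 0.07, not called), and Os11g0244800 had 4860.1, 4677 and 4696 in wild type and 5007, 4922 and 4756 in pine1 (log2 0.045, SE 0.044). At Os11g0220800 and Os11g0244800 the genotypes overlapped, and at Os11g0242800 they did not.

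Summed over its loci, the stretch had 55263, 55862 and 53793 normalized reads in wild type and 61352, 62154 and 62034 in pine1. It took 0.174% to 0.179% of the reads of a wild-type library and 0.197% to 0.198% of a pine1 library. Most of the difference of 6874 between the mean sums came from Os11g0233400, with 3959. The 5 loci read in pine1 only added 1090, and Os11g0242800 added 1547. Called lower loci together had a difference of -1108. Without Os11g0233400 the sums were 53781 to 55836 in wild type and 57475 to 58230 in pine1. The loci before the stretch summed to 66994 to 68876 in wild type and 65194 to 66754 in pine1, and those after it to 131455 to 135899 and 128052 to 135169.

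**Figure D4:**
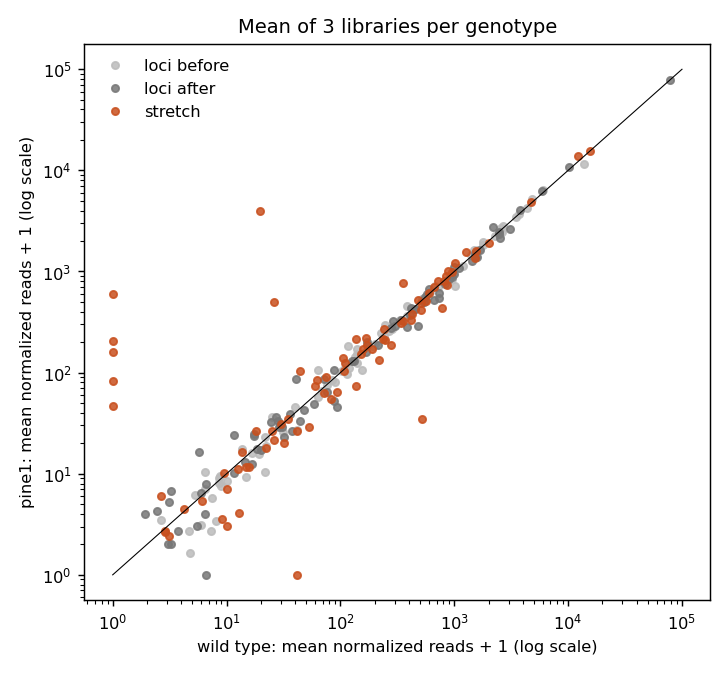
Mean normalized reads + 1 of 3 libraries in pine1 against wild type (both log scales) for the loci of the stretch (orange) and the 81 loci before (light grey) and after (dark grey); the line marks equal means. Most loci of all 3 sets lie near the line, and the 5 loci without a wild-type read form the column at the left edge, up to 598 normalized reads in pine1.

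The spread between replicates, taken within each genotype, was also described. For loci with a mean of at least 30 normalized reads in that genotype, the median coefficient of variation over the 3 libraries was 8.02% in wild type (54 loci) and 6.91% in pine1 (58 loci). The 2 sets hold partly different loci, and the pine1 set includes those read in pine1 only. Since the stretch was picked on the contrast, its spread is not free of that choice. In all genes of such a mean it was 6.42% in wild type and 7.84% in pine1. The loci before the stretch had 6.64% and 7.29%, and those after it 6.90% and 8.26%. In the genotype that read them, the 6 loci read in 1 genotype only had coefficients from 5.28% to 27.9%, with a median of 11.1%. Their reads varied 0.531 to 3.05 times as much as counting alone gives (chi-square per degree of freedom, median 1.35). The corresponding median over all genes with a mean of at least 30 was 2.42 in wild type and 3.34 in pine1. Those genes were not matched in level to the 6 loci, whose means ran from 40.2 to 598. Neither measure of spread can therefore be compared directly between them.

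No locus among the 3 at each end of the stretch was called. Just inside the first border, Os11g0220300 had 5.46, 4.81 and 5.13 normalized reads in wild type and 8.70, 1.01 and 3.38 in pine1, too few to test. Os11g0220400 had 185, 191 and 139 against 204, 167 and 189 (log2 0.13, SE 0.15). Os11g0220500 had 50.2, 34.6 and 36.8 against 26.1, 28.3 and 22.6 (log2 -0.63, SE 0.24), so that only the last of the 3 has genotypes that stand apart.

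Just outside the first border the genotypes overlapped. Os11g0218000 had 1809, 1758 and 1800.3 normalized reads in wild type and 1949.8, 1827 and 1765 in pine1 (log2 0.045). Os11g0218100 had 556, 543 and 474 against 549, 501 and 548 (log2 0.025), and Os11g0219000 had 117, 101 and 111 against 119, 107 and 103 (log2 -0.0014).

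At the second border, the last 3 loci inside were Os11g0244800, given above, Os11g0244900 and Os11g0245000. Os11g0244900 had 501, 449 and 500.1 normalized reads in wild type and 552, 520.4 and 504 in pine1 (log2 0.12, SE 0.08). The last had 44.8, 42.3 and 67.5 in wild type and 18.4, 33.3 and 32.7 in pine1 (log2 -0.87, SE 0.30, not called). Just outside it, Os11g0245100 had 49.1, 56.7 and 65.8 in wild type and 49.3, 51.5 and 44.0 in pine1 (log2 -0.23). Os11g0245200 had 29.5, 21.1 and 30.8 against 35.7, 29.3 and 31.6 (log2 0.25), and Os11g0245400 had 63.3, 72.1 and 78.6 against 91.8, 93.0 and 69.9 (log2 0.24). The genotypes overlapped at these 3 loci. The nearest called locus beyond the borders was Os11g0245500, a lipid-binding START domain gene and the 5th after the stretch, with 529.7, 465 and 439 normalized reads in wild type and 281, 291 and 301 in pine1 (log2 -0.71, SE 0.10).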

How the data were processed

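The members and lists were chosen with earlier results of these data known, and the stretch was chosen on the genotype contrast, so its differences are described. Adjusted p-values of its loci appear only to show which calls were lost or gained under other settings. The submitters' processing notes name FastQC, STAR, HTSeq, DESeq2 and build IRGSP-1.0 without versions or settings. Strand use is not stated either, so overlapping and antisense genes cannot be told apart. The authors deposited a normalized signal, gene counts divided by 1 size factor per library. Whole reads were recovered from it: within a tolerance of 0.001 reads, 100% of values are multiples of a library's step. The sheet also holds the authors' table of log2 fold changes with standard errors, p-values and descriptions for 1962 genes, per the file headers. Matching to the RefSeq gene table found 0 of the 81 loci, so no sequences or coordinates are shown.

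Log2(normalized reads + 1) was fitted by genotype over all genes in limma 3.58.1 (R 4.3.3), with an intensity trend and Benjamini-Hochberg adjustment, after edgeR's filterByExpr (minimum count 10) on recovered reads. Folds on this scale understate changes of genes with few reads. The fit was checked on simulated data. Alternatives used edgeR 4.0.16, DESeq2 1.42.0, pseudocounts of 0.5 and 5, other filters, a replicate block and each library left out. Same-numbered libraries deviated from their group means with correlations of 0.055, 0.022 and 0.13 and were not taken as pairs. Between differently numbered libraries the correlations ran from -0.24 to 0.16. Values per library are given for the loci read in 1 genotype only, the 8 largest differences each way, the 4 most read loci and the ends; others were picked after their values were seen.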

Additional observations from a re-analysis of the deposited data

How the results depend on the processing

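Of the 17 called loci of the stretch, 10 were called under all 13 alternatives and none changed direction. With 1 library left out, 8 to 10 higher and 4 to 6 lower loci were called; edgeR gave 10 and 6, DESeq2 and the replicate block 12 and 6 each, adding Os11g0243300 (adjusted p = 0.0486 and 0.0420). The filter at a mean of 50 gave 9 and 5 and left Os11g0233201 and Os11g0234001 untested. Over all genes, calls without 1 library ranged from 570 to 760 higher and from 266 to 550 lower. Without wild type replicate 1 they were 570 and 266, without wild type replicate 2 the lower calls were 272 and without wild type replicate 3 they were 388. Whether the replicate numbers mark pairs was not settled. The replicate block gave 1195 higher and 799 lower calls over all genes, against 970 and 589 in the main fit. Loci read in 1 genotype only were 6 without any 1 library and with limits of 0 or 10 reads, 7 with a mean of at least 10 and 3 with a mean of at least 100, where fewer loci can qualify. The fold changes of the 6 silent loci depend on the added value: Os11g0229000 had 9.22 with 1, 10.22 with 0.5, 6.91 with 5, 12.23 with edgeR and 11.72 with DESeq2. Of 398 fold changes of 31 named loci under the alternatives, 373 moved by less than 1 SD between replicates and 25 by more. Most of the 373 had to stay within 1 SD. The other filters and the replicate block leave a fold change as it was, and dropping 1 library of 3 cannot move it by 1 SD. The count is therefore no measure of how stable the fold changes are. Depth limits the loci under about 10 reads, and a locus with 0 reads may still be transcribed below the floor.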
